A study of Mus musculus with 12 samples.

Results

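The let-7 family was followed in mouse optic nerve as 8 mature miRNAs, taken by the probe names mmu-let-7a, mmu-let-7b, mmu-let-7c, mmu-let-7d, mmu-let-7e, mmu-let-7f, mmu-let-7g and mmu-let-7i from the 566 mouse miRNA probes of an nCounter panel. The panel ligates a tag to each mature miRNA and counts fluorescent barcodes without amplification. The nerves were isolated from male C57Bl/6 mice, whose age the labels do not give. Of the 12 samples, 3 were Control nerves, 3 were exposed to OGD (oxygen-glucose deprivation, an ex vivo model of ischaemia in which the tissue receives neither oxygen nor glucose), 3 to OGD+CX-4945 and 3 to OGD+MS-275. CX-4945 is an inhibitor of the protein kinase CK2, and MS-275 is an inhibitor of class I histone deacetylases. No group received a drug without OGD, so each drug was compared only on an OGD background. The labels are silent on the doses, on how long each exposure lasted, on whether a drug came before or after OGD, and on how many nerves or animals make up a sample. The p-values below therefore measure the spread between these samples, which may be partly technical.

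Let-7 was discovered in Caenorhabditis elegans as a regulator of developmental timing, and its mature sequence is almost unchanged across animals. A mature let-7 guides Argonaute to messenger RNAs through its seed, near the 5′ end, and lowers their translation and stability, with Hmga2, Lin28 and Ras genes among the known targets. The RNA-binding proteins LIN28A and LIN28B block the processing of let-7 precursors in stem cells and embryos, and mature let-7 accumulates as cells differentiate, so that adult nervous tissue holds large amounts of it.

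The mature sequences are shown because the members differ so little that probe identity, shared targets and hybridisation all turn on a few bases. They are RefSeq sequences of mouse build GRCm38.p6, written 5′ to 3′, and the capitals mark the seed, bases 2 to 8. All 8 members were matched, and miR-98, a family member under another name, is added for comparison.
let-7a: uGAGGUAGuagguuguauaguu
let-7b: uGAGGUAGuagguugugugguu
let-7c: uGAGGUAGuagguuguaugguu
let-7d: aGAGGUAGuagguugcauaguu
let-7e: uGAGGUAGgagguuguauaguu
let-7f: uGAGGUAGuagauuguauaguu
let-7g: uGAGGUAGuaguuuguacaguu
let-7i: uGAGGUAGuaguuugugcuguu
miR-98: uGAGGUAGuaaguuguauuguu

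All 9 sequences are 22 bases long and share the seed GAGGUAG, so they differ only outside it. Counting positions from 1 at the 5′ end, and giving the let-7a base, the position and then the other member's base, let-7c differs from let-7a by A19G alone. Let-7b carries A17G and A19G, let-7d carries U1A and U16C, let-7e carries U9G, and let-7f carries G12A. Let-7g carries G12U and U18C, and let-7i carries G12U, A17G, U18C and A19U. Within the 8 members, the pairs lie between 1 base (let-7a with let-7c, let-7e or let-7f, and let-7b with let-7c) and 6 bases (let-7d with let-7i) apart. The GC content ran from 31.8% in let-7f to 45.5% in let-7b. Probes for targets 1 base apart can share signal, and how far these probes did so was not tested.

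The genes of the family are scattered, and several are transcribed in clusters. On mouse build GRCm38.p6 the mature let-7a of Mirlet7a-1 lies at chr13:48538239-48538260, that of Mirlet7f-1 at chr13:48537889-48537910 and that of Mirlet7d at chr13:48536078-48536099, all on the minus strand, in an interval that no other gene of the RefSeq table spans. Mirlet7c-2 (chr15:85706616-85706637) and Mirlet7b (chr15:85707325-85707346) lie together on the plus strand within the span of the long noncoding RNA gene Lncppara. The other let-7c copy, Mirlet7c-1 (chr16:77599672-77599693, plus strand), neighbours Mir99a. Mirlet7e (chr17:17830366-17830387, plus strand) sits between Mir99b and Mir125a within the span of Spaca6. Mirlet7a-2 lies within Mir100hg on chromosome 9 beside Mir100 and Mir125b-1. Mirlet7f-2 (chrX:151912353-151912374, plus strand) and Mir98 lie within Huwe1. Mirlet7g (chr9:106178846-106178867, plus strand) lies within the span of Wdr82, and Mirlet7i (chr10:122985698-122985719, minus strand) within no other listed gene. A mature let-7a, let-7c or let-7f count cannot be assigned to either of its 2 genes.

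The samples were read in 12 lanes, whose total raw count over the mouse miRNA probes ran from 254692 to 542399. By the last number of the sample titles, Control filled lanes 1 to 3 and OGD lanes 4 to 6. OGD+CX-4945 filled lanes 7 to 9 and OGD+MS-275 lanes 10 to 12. Lane position and group therefore cannot be told apart. The 8 negative controls set the detection limit of a lane (their mean plus 2 SD), which lay between 32.0 and 60.6 counts, and the 217 probes above it in at least 3 lanes were tested. All 8 members exceeded the limit in every lane, and the lowest member count of a lane was 19.4 to 90.3 times the limit. OGD replicate 2 stood apart: it had the lowest total, the fewest probes above the limit (154, against up to 224) and the lowest yield of the positive ligation controls (a geometric mean of 1109 counts, against up to 3787). The ligation yield also differed by group, with 1726 ± 558 counts in Control and 1761 ± 657 in OGD, against 2749 ± 1061 with CX-4945 and 3020 ± 123 with MS-275 (SD, n = 3 each). Of the 4 listed oligodendrocyte markers 3 were above the limit in all lanes, among them miR-219 (6328 to 17022 counts) and miR-338-3p (12699 to 32812). Of the 4 listed neuronal markers 3 were so too, among them miR-124 (5145 to 11485 counts). Of the 5 listed markers of retina and pigment epithelium, miR-204 held 3773 to 7336 counts while miR-183, miR-182, miR-96 and miR-211 were above the limit in no lane. Marker lists are given as summed shares beside the comparisons in which their groups separated.

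Together the members were among the most abundant miRNAs of the nerve. Their summed raw count was 21.3% to 24.9% of the mouse miRNA count of a lane, lowest in OGD replicate 2. By group the summed share was 23.5% ± 0.96 in Control and 22.6% ± 1.11 in OGD, against 24.0% ± 0.79 with CX-4945 and 22.9% ± 0.71 with MS-275 (SD, n = 3), so the groups' means differed by about as much as their samples. Levels below are raw counts scaled to a common library size with TMM factors, called normalised counts.

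By its mean over the 12 lanes, let-7g was the highest member, at 20713 normalised counts, and ranked 3 of the 217 tested probes. Let-7d followed at 18561 (rank 6), let-7b at 14250 (rank 7), let-7c at 11865 (rank 9) and let-7i at 10392 (rank 12). Let-7a stood at 7064 (rank 16), let-7e at 2871 (rank 30) and let-7f at 2434 (rank 33). These values were read with 8 different probes whose efficiencies were not calibrated against each other, so the order is that of the barcode counts of targets of equal length.

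The order held in most lanes. Let-7g exceeded let-7d in 12 of 12 lanes, although by only 1.02 to 1.18 times. Let-7d exceeded let-7b, let-7i exceeded let-7a, and let-7a exceeded let-7e in 12 of 12 lanes as well. The remaining neighbours crossed: let-7b exceeded let-7c in 11 of 12 lanes, let-7c exceeded let-7i in 10 and let-7e exceeded let-7f in 11. In OGD replicate 2, let-7c reached only 0.728 times let-7i.

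Members differed in how much they varied between samples of a group. The within-group SD of the log2 normalised count was 0.10 for let-7b and let-7i, 0.11 for let-7g, 0.12 for let-7e and 0.14 for let-7d. It was 0.18 for let-7c, 0.21 for let-7a and 0.23 for let-7f, against a median of 0.24 over the 217 probes. Counting error at each member's lowest count was 0.84% to 3.10%, under these spreads, and covers counting only.

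OGD vs Control asks what deprivation alone did to the family. Let-7a, let-7c and let-7f had lower normalised counts in all 3 OGD samples than in any Control sample, while let-7b, let-7d, let-7e, let-7g and let-7i overlapped. None of the 8 passed the test, in which 0.0% of the 217 probes were called at an adjusted p under 0.05.

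Let-7c, transcribed from a gene beside Mirlet7b and another beside Mir99a, read 12843, 14650 and 12686 normalised counts in the Control samples and 10447, 8140 and 10809 in the OGD samples. The lowest Control sample thus lay above the highest OGD sample, and OGD replicate 2 was lowest. Its fitted log2 fold change was -0.45 (SE 0.14, 95% interval -0.74 to -0.16, adjusted p = 0.430 by edgeR's quasi-likelihood test), and by unadjusted p it ranked 1 of the 217 probes.

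Let-7a, the reference form of the family, read 7666, 8951 and 7893 in Control and 6340, 4898 and 7188 in OGD. These groups did not overlap either, but the highest OGD and the lowest Control sample were close. This gave a log2 fold change of -0.41 (SE 0.15, 95% interval -0.74 to -0.08, edgeR adjusted p = 0.531).

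Let-7f, which is transcribed from the let-7a and let-7d cluster and from the X chromosome, read 2687, 2719 and 2652 in Control and 2109, 1631 and 2349 in OGD. The 3 Control samples were nearly equal, and the OGD samples spread widely below them. The fitted log2 fold change was -0.40 (SE 0.17, 95% interval -0.77 to -0.03, edgeR adjusted p = 0.747).

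Let-7d, the third member of the chromosome 13 cluster, did not share this order. It read 19608, 20182 and 16842 in Control and 20001, 21780 and 18959 in OGD, and its highest value was that of OGD replicate 2. Its log2 fold change was 0.10 (SE 0.12, 95% interval -0.15 to 0.35).

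Let-7b, let-7e, let-7g and let-7i had log2 fold changes of -0.05, -0.05, 0.04 and 0.06, each with overlapping groups and 95% intervals between -0.33 and 0.29. Over the 8 members the median was -0.05, against 0.01 over all 217 probes. The 3 members with lower, separated groups stand against 9.22% of all probes separated in that direction. They also reached an unadjusted p under 0.05, as 5.07% of all probes did in that direction. Let-7a, let-7c and let-7f varied together between samples of the same group (r of 0.91 to 0.93), so they are not 3 independent readings.

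OGD replicate 2 carried part of these values. Without it the log2 fold changes were -0.27 (SE 0.15) for let-7a, -0.33 (SE 0.14) for let-7c and -0.27 (SE 0.18) for let-7f, and only let-7c kept an unadjusted p under 0.05, as it did without Control replicate 2. Let-7f also lost it without Control replicate 1, Control replicate 3 or OGD replicate 1 and with the negative controls subtracted. With the ligation yield as a covariate the 3 values were -0.43, -0.46 and -0.42. Their sign was the same under all 28 other settings and lane omissions tried. With the mRNA probes as size factor the median of all probes moved to -0.11 and the 3 values were -0.35, -0.39 and -0.36 relative to it. A size factor moves all probes alike, so such relative values stay similar by construction. Under mRNA scaling, with the ligation controls as size factor and with the deposited signals, none of the 3 had an unadjusted p under 0.05. The 3 listed erythroid markers, 1 of them above the limit in all lanes, summed to 0.355% to 0.377% of the miRNA count in Control and 0.230% to 0.287% in OGD, and their part in the result was not tested. In bulk nerve, fewer cells of a type and less RNA per cell cannot be told apart.

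**Figure D1:**
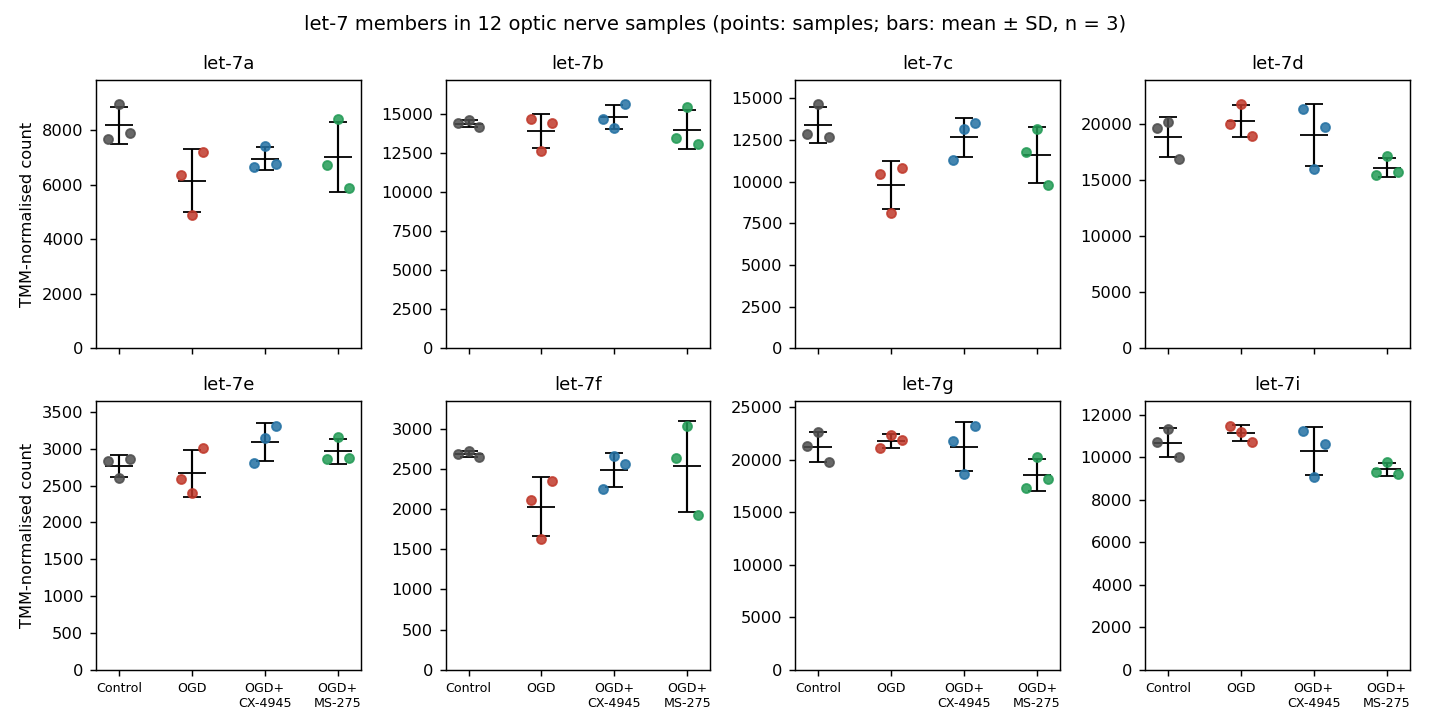
Normalised counts (vertical axes, from 0) of the 8 let-7 members in the 4 groups, with a point per sample and bars for the mean ± SD of 3 samples. Let-7a, let-7c and let-7f sit lower in all 3 OGD samples than in Control, and let-7d, let-7g and let-7i sit lower in all 3 OGD+MS-275 samples than in OGD on this scale, an order whose fold changes turn sign when lanes are scaled by the mRNA probes.

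OGD+CX-4945 vs OGD asks whether the kinase inhibitor changed the family under deprivation. Let-7c was the only member whose groups separated, with higher values under the drug, and no member passed the test (0.0% of all probes called).

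Let-7c read 11326, 13155 and 13520 normalised counts in the OGD+CX-4945 samples, all above the OGD samples given above, and 2 of them within the Control range. The log2 fold change was 0.37 (SE 0.14, 95% interval 0.08 to 0.66, edgeR adjusted p = 0.628). Higher, separated groups were found for 4.61% of all probes and an unadjusted p under 0.05 in that direction for 5.07%. Without OGD replicate 2 the value was 0.25, with the ligation yield as a covariate 0.24, and in neither did the unadjusted p stay under 0.05. With the ligation controls as size factor the value was 0.08 beside an all-probe median of -0.26. With a block of 3 sets, formed by the leading digits of the number in the sample titles, beside the ligation covariate it was 0.10. The unadjusted p was not under 0.05 in those fits, under mRNA scaling or with the deposited signals. The same was so without OGD+CX-4945 replicate 3, whereas without OGD replicate 3 the members under 0.05 were let-7c, let-7e and let-7f.

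Let-7f read 2250, 2659 and 2559, a log2 fold change of 0.29 (SE 0.17), and its lowest treated sample lay below the highest OGD sample. Let-7e read 2808, 3150 and 3314 against 2592, 2394 and 3009 in OGD, a log2 fold change of 0.21 (SE 0.13) with overlap. Let-7a read 6642, 7428 and 6769, a log2 fold change of 0.18 (SE 0.15) with overlap.

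Let-7b, let-7g, let-7d and let-7i had log2 fold changes of 0.09, -0.04, -0.09 and -0.11 and overlapping groups. For let-7d and let-7g, OGD+CX-4945 replicate 2 was the lowest of the 3, at 15971 and 18677, and the other samples lay at 19715 or more. The median over the 8 members was 0.13, against 0.03 over all probes. Under scaling by the ligation controls the values of let-7a and let-7e turned to -0.09 and -0.07, while the median of all probes moved to -0.26. Relative to that median they were 0.17 and 0.20, which again stay near the TMM values by construction.

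OGD+MS-275 vs OGD asks the same of the deacetylase inhibitor. Under TMM scaling let-7d, let-7g and let-7i had lower values in all 3 treated samples than in any OGD sample, an order whose fold changes turned positive when lanes were scaled by the mRNA probes or taken from the deposited signals. The remaining members overlapped between these groups. None of the 8 passed the test, which called 0.461% of the probes (1 of 217).

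Let-7d read 15487, 17117 and 15737 normalised counts under OGD+MS-275, all below the lowest OGD sample at 18959. The log2 fold change was -0.33 (SE 0.12, 95% interval -0.58 to -0.08, edgeR adjusted p = 0.187).

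Let-7g, which has a single gene, read 17301, 20244 and 18169 under OGD+MS-275 and 21098, 22406 and 21896 in OGD, so the groups lay apart by less than the range of the treated samples. Its log2 fold change was -0.23 (SE 0.10, 95% interval -0.45 to -0.01, edgeR adjusted p = 0.224).

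Let-7i, also from a single gene, read 9306, 9785 and 9230 under OGD+MS-275 and 11485, 11178 and 10718 in OGD. Both groups were compact, with SDs of 301 and 386. They gave a log2 fold change of -0.24 (SE 0.11, 95% interval -0.46 to -0.01, edgeR adjusted p = 0.224).

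Let-7f read 2635, 3038 and 1920 under OGD+MS-275, a log2 fold change of 0.32 (SE 0.17). Its treated samples spanned more than the OGD samples, and OGD+MS-275 replicate 3 was the low one. Let-7c read 11800, 13188 and 9814, a log2 fold change of 0.24 (SE 0.14), and let-7a read 6734, 8391 and 5864, a log2 fold change of 0.19 (SE 0.15), each with that same sample lowest. Let-7e and let-7b had log2 fold changes of 0.15 and 0.01.

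The 3 members lower at an unadjusted p under 0.05, let-7d, let-7g and let-7i, stand against 9.68% of all probes lower by that rule, and the separated groups against 10.6%. These members also varied together between samples of the same group (r of 0.78 to 0.93), so they are not 3 independent readings. The median over the 8 members was 0.08, against 0.03 over all probes. The ligation yield moved with this comparison: it was 2914 to 3155 counts in the OGD+MS-275 lanes and 1109 to 2423 in the OGD lanes. These ranges did not overlap, so the yield as a covariate is hard to separate from group here. With the ligation yield as a covariate the log2 fold changes were -0.16 (SE 0.12) for let-7d, -0.20 for let-7g and -0.15 for let-7i. None then had an unadjusted p under 0.05. The same held without OGD replicate 2, where let-7d stood at -0.27. Without Control replicate 1, OGD replicate 1, OGD+CX-4945 replicate 3 or OGD+MS-275 replicate 1, only let-7d stayed under 0.05. Without OGD+MS-275 replicate 3, let-7c and let-7f joined it on the higher side, beside 42 of 217 probes in either direction. With lanes scaled by their total miRNA count only let-7d stayed lower, at -0.21, and let-7g and let-7i were -0.12 each. Let-7c and let-7f were then under 0.05 on the higher side, beside 48 of 217 probes in either direction. With no filter on probes none of the 3 stayed, and let-7c and let-7f were again higher, beside 74 of 566 probes. With TMM factors made without the members only let-7d stayed, and blocks of 3 or 2 sets by sample title kept let-7d and let-7i and lost let-7g. Without OGD replicate 3 let-7g was also lost and let-7f was under 0.05 on the higher side, beside 52 of 217 probes. With only probes above the limit in all 12 lanes let-7i was lost, beside 31 of 150.

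Scaling decided the sign here. With the mRNA probes as size factor the median of all probes moved to 0.54 and the log2 fold changes of let-7d, let-7g and let-7i to 0.17, 0.26 and 0.24. Relative to that median they were -0.37, -0.28 and -0.30. Under mRNA scaling none of these 3 had an unadjusted p under 0.05. Let-7c and let-7f did so on the higher side, at 0.70 and 0.78, beside 45 of 217 probes in either direction. With the ligation controls as size factor the median moved to -0.42. The values of let-7d, let-7g and let-7i were then -0.81, -0.70 and -0.71, or -0.39, -0.28 and -0.29 relative to that median. A size factor moves all probes alike, so values relative to the median stay similar by construction. With the ligation covariate let-7d was -0.16 against a median of 0.00, and with that covariate and a block of 3 title sets let-7d was 0.05 and let-7g 0.01 against a median of -0.03.

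**Figure D2:**
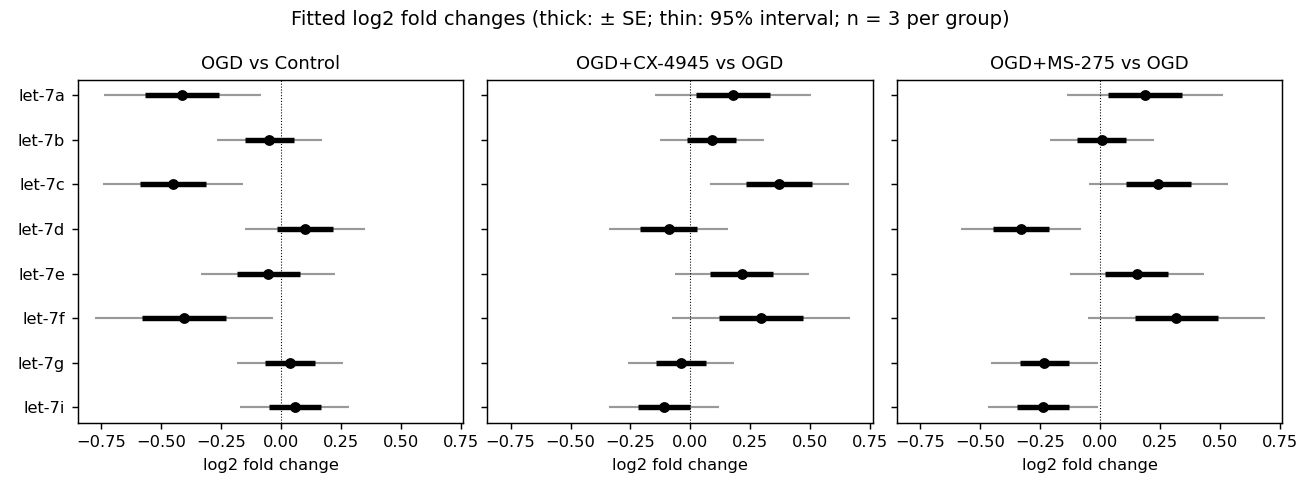
Log2 fold changes of the 8 members (horizontal axes) in OGD vs Control, OGD+CX-4945 vs OGD and OGD+MS-275 vs OGD, with thick bars for the SE and thin bars for the 95% interval of the edgeR fit over 3 samples a group. The intervals of let-7a, let-7c and let-7f in the left panel, let-7c in the middle and let-7d, let-7g and let-7i in the right exclude 0 before adjustment and none passes after it. The values in the right panel turn sign under other scalings.

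Set against Control, the drug groups showed no member past the test either. In OGD+CX-4945 vs Control (0.0% of probes called, and 8.29% with an unadjusted p under 0.05, no member among them) let-7a was the only member with separated groups, lower under the drug at a log2 fold change of -0.23 (SE 0.15, edgeR adjusted p = 0.673), where 4.61% of probes were separated in that direction. Let-7c, at -0.08 (SE 0.14), overlapped Control. With the ligation covariate let-7a was -0.35, with an unadjusted p under 0.05 (as for 18 of 217 probes), and let-7c -0.22. With that covariate and the block of 3 title sets both were under 0.05, at -0.49 and -0.37, beside 12 of 217 probes. In OGD+MS-275 vs Control (1.38% called, 3 of 217, and 23.0% with an unadjusted p under 0.05, again no member) let-7i was lower with separated groups at -0.18 (SE 0.11), beside 13.4% of probes, and let-7e was higher at 0.10 (SE 0.13), beside 15.2%. Its 3 treated values of 2867, 3159 and 2869 lay just above the Control values of 2836, 2599 and 2860. In the same comparison the ligation covariate put let-7a at -0.38 (SE 0.18) and let-7c at -0.39 (SE 0.15). Both had an unadjusted p under 0.05, as did 21 of 217 probes. With the block of 3 title sets added their values were -0.66 and -0.69, both among the 9 of 217 probes under 0.05. The ligation counts of these groups did not overlap (1386 to 2369 in Control, 2914 to 3155 with MS-275), so this covariate is hard to separate from group. OGD+MS-275 also has no sample in the set of title numbers 1140, 1144 and 1145. The blocks of 3 or 2 title sets alone put let-7d under 0.05, at -0.27 and -0.26, beside 71 and 53 of 217 probes. A fit of these 2 groups only did so too, beside 59 of 217. Under ligation scaling let-7a, let-7c, let-7d and let-7g were under 0.05, as were 52 of 217 probes. Let-7d was under 0.05 without Control replicate 3 (52 of 217). Let-7d and let-7g were so without OGD+CX-4945 replicate 2 (54 of 217), and let-7a and let-7g without OGD+MS-275 replicate 2 (40 of 217). The let-7i value turned to 0.20 under mRNA scaling, where the median of all probes was 0.36, and the let-7e value to -0.29 under ligation scaling, where that median was -0.39. The erythroid markers summed to 0.212% to 0.316% in OGD+CX-4945 and 0.273% to 0.312% in OGD+MS-275, again below Control. The 4 endothelial and mural markers, all above the limit in every lane, summed to 3.11% to 3.37% in OGD+MS-275 and 3.47% to 4.10% in Control. The 5 retinal markers, of which 4 were above the limit in no lane, summed to 1.23% to 1.27% and 1.39% to 1.56%. The 4 neuronal markers, 3 of them above the limit in all lanes, were higher, at 2.259% to 2.42% in OGD+MS-275 and 2.17% to 2.256% in Control, so the nearest samples were almost equal. The part of these lists in the values was not tested.

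Between the 2 drug groups no member passed the test. The test of MS-275 against CX-4945 called 0.0% of probes, and 4.15% had an unadjusted p under 0.05, no member among them. No member's groups were separated either, which 5.07% of probes were with higher and 3.69% with lower values under MS-275. The largest member difference was that of let-7d, at -0.24 (SE 0.12, 95% interval -0.49 to 0.01, edgeR adjusted p = 0.920), which was 0.02 under mRNA scaling, where the median of all probes was 0.22. With blocks of 3 or 2 title sets it was -0.28 and -0.27, both with an unadjusted p under 0.05, beside 28 and 16 of 217 probes. Without OGD+CX-4945 replicate 2 (19 of 217) or OGD+MS-275 replicate 2 (7 of 217), let-7d and let-7g were under 0.05. With the block of 3 title sets and the ligation covariate, let-7c was (10 of 217). For let-7c the difference was -0.13 (95% interval -0.42 to 0.16), so a difference of that size between the drugs was not resolved. The comparisons with OGD share the OGD samples, and those with Control share the Control samples, so their values are not independent of each other. A single test for any difference among the 4 groups called 0.461% of the probes and no member, let-7c coming nearest with an edgeR adjusted p of 0.291. DESeq2 and limma-voom likewise called none of the 8 in any of these comparisons.

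Shares within the family do not depend on how lanes are scaled, since each is a member's part of the 8 members' summed raw count in its own lane. In OGD vs Control let-7c made up 11.1% ± 1.38 against 14.5% ± 0.53, let-7a 6.98% ± 1.15 against 8.86% ± 0.46, and let-7f 2.31% ± 0.36 against 2.92% ± 0.13 (SD, n = 3). The OGD samples lay below all Control samples in these 3 members.

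The shares of a lane sum to the whole, and other members were correspondingly higher. Let-7g made up 24.9% ± 1.32 in OGD against 23.0% ± 0.20 in Control, and let-7i 12.7% ± 0.61 against 11.6% ± 0.067. The OGD samples lay above all Control samples in both, while let-7b, let-7d and let-7e overlapped. OGD replicate 2 was the extreme of the OGD group, at 9.57% for let-7c and 26.3% for let-7g.

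In OGD+CX-4945 the let-7c share was 14.0% ± 1.67, above all OGD samples and overlapping Control. In OGD+MS-275 it was 14.1% ± 1.11, also above all OGD samples. Let-7b (16.9% to 17.1% against 15.8% ± 0.87 in OGD) and let-7e (3.61% ± 0.12 against 3.03% ± 0.29) were higher under OGD+MS-275 than in any OGD sample. Let-7d (19.6% ± 0.81 against 23.1% ± 2.25) and let-7g (22.6% ± 0.997 against 24.9% ± 1.32) were lower. The nearest let-7g samples were almost equal, at 23.70% in OGD+MS-275 replicate 3 and 23.79% in OGD replicate 1. Let-7i overlapped by share (11.5% ± 0.62 against 12.7% ± 0.61), as did let-7a and let-7f. The let-7b share under OGD+MS-275 was also above every sample of Control and of OGD+CX-4945, and let-7e above every Control sample.

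Each of these separations had an exact two-sided permutation p of 0.10, the smallest that 3 samples against 3 can give. Of 48 member-by-comparison tests 14 reached it, and the Benjamini-Hochberg value over the 48 was 0.343 or more for all, so this design cannot pass the threshold whatever the size of a shift. The 48 tests share samples and the shares of a lane sum to the whole, so the 14 are not independent of each other.

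**Figure D3:**
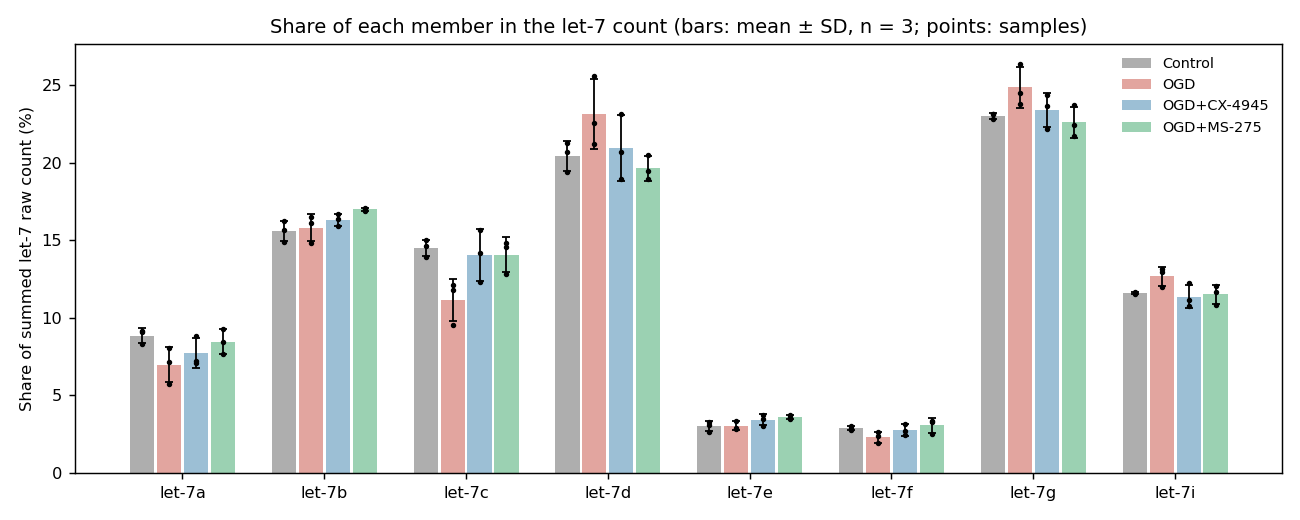
Share of each member in the summed raw count of the 8 let-7 members (vertical axis, percent), with bars for the mean ± SD of 3 samples per group and a point per sample. The let-7c share is 14.5% in Control, 11.1% in OGD, 14.0% with CX-4945 and 14.1% with MS-275.

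Members varied together in 2 sets when group means were removed, so that only differences between samples of the same group remained. Over the 12 lanes let-7a, let-7c and let-7f correlated at r = 0.92 (let-7a with let-7c), 0.91 (let-7a with let-7f) and 0.93 (let-7c with let-7f). Let-7d and let-7i correlated at r = 0.93. These were the 4 of 28 pairs that passed a Benjamini-Hochberg threshold of 0.05, at 0.036 for the 3 pairs of the first set and 0.0432 for let-7d with let-7i, by an exact permutation test that reshuffles samples within groups. Spearman's rho was 0.96, 0.88, 0.87 and 0.91 in the same order, each at an adjusted exact p of 0.0216. Without the 2 lanes farthest from the median, r was 0.90, 0.85, 0.85 and 0.83.

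Cluster membership lined up with these sets in part. Let-7a and let-7f, which vary together, share the chromosome 13 cluster. Let-7d shares it too, but its r was -0.18 with let-7a and -0.24 with let-7f, and its closest members, let-7i and let-7g (r = 0.82), lie on other chromosomes. Let-7b, which shares a cluster with a let-7c copy, had an r of 0.80 with let-7c and did not pass (adjusted exact p = 0.126).

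The sets did line up with a feature of the printed sequences, noticed after the values were seen and so given without a test. Let-7d, let-7g and let-7i each hold 1 cytosine, and let-7a, let-7b, let-7c, let-7e and let-7f hold none. Among the 10 pairs of members without cytosine r ran from 0.59 to 0.93, and among the 3 pairs with it from 0.78 to 0.93. The 15 mixed pairs ran from -0.44 to 0.52, with a median of 0.02. Without OGD replicate 2 the ranges were 0.38 to 0.89, 0.78 to 0.98 and -0.43 to 0.79. With the ligation slope removed as well they were 0.38 to 0.90, 0.80 to 0.94 and 0.02 to 0.73, and with lanes scaled by their total count 0.60 to 0.93, 0.46 to 0.80 and -0.75 to 0.14. What lies behind the sets was not tested.

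**Figure D4:**
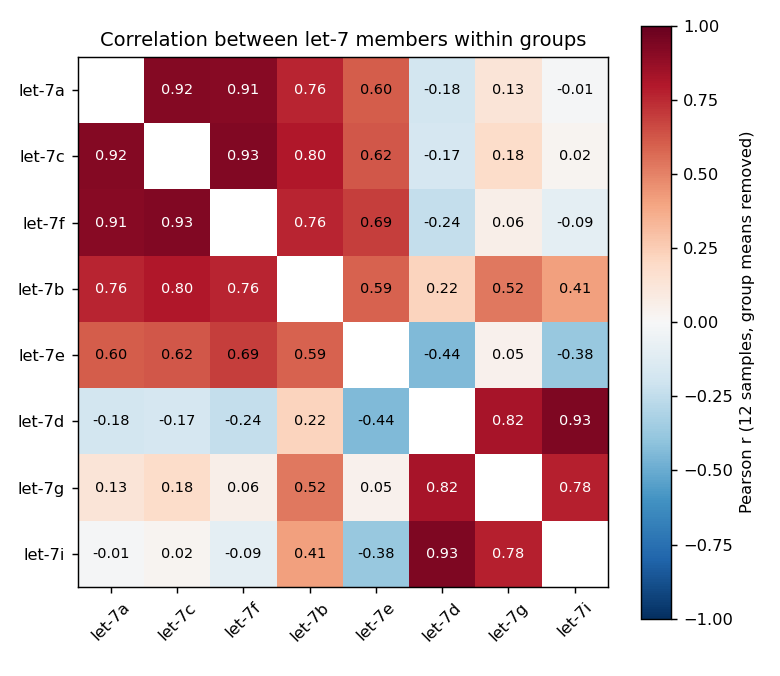
Pearson r between the 8 members over the 12 samples after the group means were removed, on a colour scale from -1 to 1. Let-7a, let-7c, let-7f, let-7b and let-7e form a block with r of 0.59 or more, let-7d, let-7g and let-7i a block with 0.78 or more, and pairs across the blocks lie at 0.52 or less.

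The ligation yield, the geometric mean of the raw counts of the positive ligation controls in a lane, was set against each member. It was not divided by lane depth, so it may also carry how much of a lane was counted. The lanes with the lowest and the highest total miRNA count also had the lowest and the highest yield, while the order of the others differed. Let-7e followed it upward, with r = 0.84 and rho = 0.85 over the 12 lanes (permutation p adjusted over the 8 members 0.0039 and 0.0074), and r = 0.83 without the 2 lanes farthest from the median. Let-7d and let-7i followed it downward, at r = -0.72 and -0.70 (adjusted permutation p = 0.036 each, rho = -0.68 and -0.69, adjusted 0.0502 each). These permutations ignore the groups, between which the ligation yield differed, so their p-values mix differences between groups with those within. With group means removed r was 0.82 for let-7e, -0.64 for let-7d and -0.47 for let-7i. None of the 3 then passed an exact test within groups (adjusted p = 0.148, 0.265 and 0.344), and without the 2 farthest lanes r was 0.67, -0.42 and -0.31. The other 5 members passed in neither form.

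In the fit across all probes, the slope per doubling of the ligation yield was 0.21 for let-7e (edgeR adjusted p = 0.113) and -0.19 for let-7d (adjusted p = 0.154). No member was called, while 11.5% of the 217 probes were, 10 with a positive and 15 with a negative slope.

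**Figure D5:**
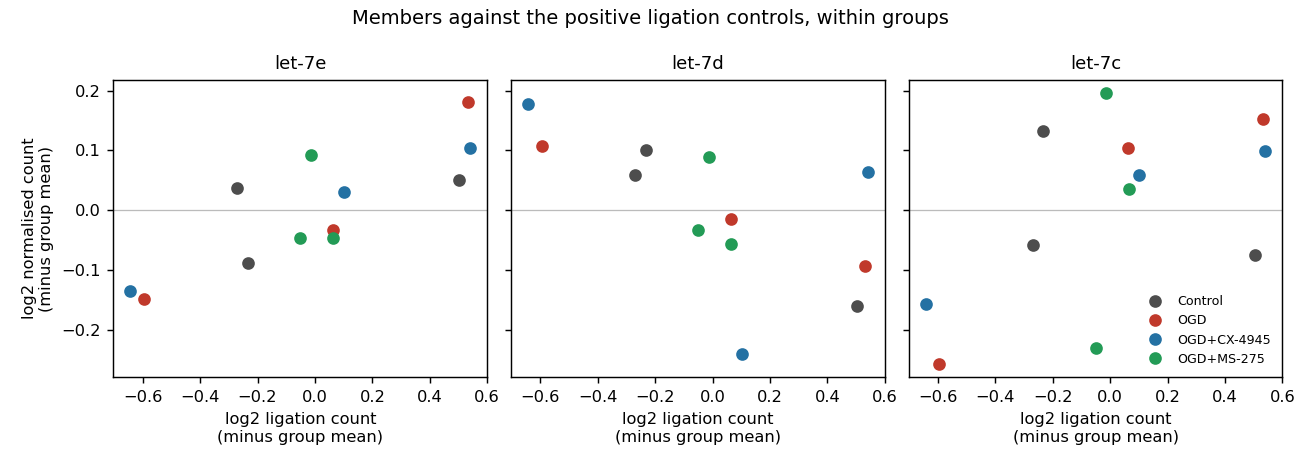
Log2 normalised count of let-7e, let-7d and let-7c (vertical axis) against the log2 geometric mean of the positive ligation controls (horizontal axis), both minus their group mean, with a point per sample coloured by group. Let-7e is higher where the ligation yield is higher (r = 0.82) and let-7d lower (r = -0.64), while let-7c (r = 0.54) is spread more widely.

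The relatives of let-7 were read from a list of miRNAs that share its seed, a precursor or a cluster. Of 24 listed, 9 were in the table and 8 were tested, and the other arms of the let-7 precursors were not analysed here. MiR-202-3p, whose seed resembles that of let-7, held 8 to 32 counts and was above the limit in no lane. MiR-98 read 642, 691 and 644 normalised counts in Control and 590, 563 and 663 in OGD. With CX-4945 it read 655, 617 and 648, and with MS-275 581, 583 and 531. The OGD samples overlapped every other group, with log2 fold changes of -0.12 (SE 0.13) in OGD vs Control and -0.10 (SE 0.13) in OGD+MS-275 vs OGD. All 3 OGD+MS-275 samples lay below Control, as for 13.4% of all probes, and below OGD+CX-4945, as for 3.69%. The log2 fold changes there were -0.22 (SE 0.13, edgeR adjusted p = 0.328) and -0.18 (SE 0.13, edgeR adjusted p = 0.920).

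None of the 8 relatives passed the test in any of the 6 comparisons. MiR-99a, the neighbour of Mirlet7c-1, had the lowest p among them, in OGD+MS-275 vs OGD. It read 4836, 6141 and 4664 in OGD and 3575, 3913 and 3756 in OGD+MS-275, where all 3 samples lay below OGD, as was so for 10.6% of all probes. The log2 fold change was -0.48 (SE 0.14, edgeR adjusted p = 0.173). In OGD+MS-275 vs Control it was -0.47 (SE 0.14, edgeR adjusted p = 0.091). The treated samples also lay below all Control samples, at 5066, 5694 and 4811, as was so for 13.4% of all probes.

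The 8 relatives had a median log2 fold change of -0.14 in that comparison, 7 of them below 0 (as were 44.2% of all probes) and 2 with an unadjusted p under 0.05, against 20.7% of all probes in either direction. All 8 were above 0 with the mRNA probes as size factor or the deposited signals, and 4 of 8 with the total miRNA count. In OGD vs Control their median was 0.01 and in OGD+CX-4945 vs OGD it was -0.06, with none under 0.05. In OGD+MS-275 vs Control it was -0.16, with 6 of the 8 below 0 and 3 under 0.05, beside 23.0% of all probes. There 7 of the 8 were above 0 under mRNA scaling.

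Neighbours on the chromosome did not vary together in any simple way. With group means removed, let-7e correlated with miR-99b at r = 0.78 (rho = 0.82, exact p adjusted over 8 pairs = 0.0123 and 0.037, r = 0.90 without the 2 farthest lanes) and with miR-125a-5p, from the same cluster, at r = -0.80 (adjusted exact p = 0.114). Let-7c and miR-99a gave r = -0.49, let-7a and miR-100 r = 0.52, and let-7f and miR-98 r = 0.69, none of which passed. For miR-125b-5p, which has a copy near let-7c and another near let-7a, r was 0.08 and 0.00.

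Outside the family and its list, the probes most like each member over the 12 lanes are given as a description, by Pearson r among all other tested probes. MiR-423-5p was the closest to let-7a (r = 0.81), let-7c (0.88) and let-7f (0.88), followed by the probe for miR-1937a and miR-1937b for let-7a (0.79) and let-7c (0.76) and by miR-340-5p for let-7f (0.81). MiR-181a was second for let-7d (0.85) and let-7i (0.87), behind miR-30c (0.87) and miR-25 (0.90). Let-7b was closest to miR-500 (0.79) and miR-384-3p (0.76), let-7e to miR-107 (0.83) and miR-384-5p (0.81), and let-7g to miR-203 and miR-532-5p (0.77 each). Spearman's rho for these 16 pairs ran from 0.56 to 0.93. The lanes share their depth and ligation yield, and OGD replicate 2 is among them.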

How the data were processed

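Small RNA of 12 optic nerve samples was profiled on an nCounter miRNA panel. Values of the main table are deposited raw counts of barcodes, a column per lane, per the file headers. A second table holds the deposited processed signal, whose making is not given in the sources used here. For the let-7 members it equalled the count after subtraction of the median negative control, multiplied by a lane factor that followed the 4 mRNA probes' mean, and as log2(value + 1) it was used in an alternative fit. No column of the tables went unused for want of a sample.

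Groups follow the agent field of the labels. Replicate numbers follow deposit order and pair nothing. A probe was tested when its raw count exceeded the lane limit (mean plus 2 SD of the 8 negative controls) in at least 3 lanes. 33 viral probes and 1 row without a name were left out. All 12 samples entered 1 fit of edgeR 4.0.16 (R 4.3.3; TMM factors, robust quasi-likelihood test) with a mean per group, Benjamini-Hochberg adjustment over the 217 tested probes and a threshold of 0.05. The test was tried on simulated counts with known changes before use. DESeq2 1.42.0 and limma 3.58.1 were alternatives.

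Shares were tested by exact permutation of samples. Correlations over all lanes used 100000 permutations. With group means removed, the 1296 arrangements of samples within groups were enumerated in place of the planned free permutation, which ignores the groups, and the smallest p they give is 0.000772. For the ligation yield, the planned form gave adjusted p-values of 0.0102 for let-7e and 0.105 for let-7d. All 8 members, the listed relatives in the table and the 2 probes most like each member are named. Members and lists were chosen with earlier results of these data known. Other settings were scaling, background subtraction, filter, test, samples in the fit, ligation yield as a covariate, blocks by the number in the sample titles, and leaving out each lane. The RefSeq tables of GRCm38.p6 gave sequences and positions. The genome build does not enter the counts.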

Additional observations from a re-analysis of the deposited data

How the results depend on the processing

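The number of let-7 members past the threshold was 0 in every comparison under all settings tried, and the lowest p of the shares' test cannot pass in a design of 3 against 3. The 48 log2 fold changes were recomputed under 28 settings, 16 of processing and 12 leaving out a lane, and 23 of the 48 were within 1 SE of 0 and were taken to have no direction. Of the others, 19 turned sign somewhere, 41 times in all, and never by leaving out a lane. No log2 fold change of OGD vs Control beyond 1 SE of 0 did so. The settings that turned them move all probes together or take out the ligation yield, so the direction of those 19 values depends on the setting chosen. The labels give no replicate numbers shared between groups, so no replicate block was fitted. Blocks by the leading digits of the number in each title (3 or 2 sets), whose meaning the labels do not give, called no member and turned no sign of a value beyond 1 SE of 0.

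With the ligation controls as size factor, the values were -0.09 for let-7a and -0.068 for let-7e in OGD+CX-4945 vs OGD. In OGD+MS-275 vs OGD they were -0.25 for let-7a, -0.20 for let-7c, -0.29 for let-7e and -0.11 for let-7f, and let-7e was -0.062 in OGD+CX-4945 vs Control.

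With the mRNA probes as size factor, let-7i was 0.11 in OGD+CX-4945 vs OGD. In OGD+MS-275 vs OGD let-7d was 0.17, let-7g 0.26 and let-7i 0.24. Against Control, with MS-275 let-7a was 0.18, let-7c 0.20, let-7d 0.16, let-7g 0.19 and let-7i 0.20, and in OGD+MS-275 vs OGD+CX-4945 let-7d was 0.019, let-7g 0.057 and let-7i 0.13.

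With the deposited processed signals, let-7i was 0.26 in OGD+CX-4945 vs OGD. In OGD+MS-275 vs OGD let-7d was 0.22, let-7g 0.31 and let-7i 0.31. Against Control, with MS-275 let-7a was 0.038, let-7c 0.059, let-7d 0.049, let-7g 0.079 and let-7i 0.096, and let-7i was 0.047 in OGD+MS-275 vs OGD+CX-4945. The median of all probes stood at -0.33 in OGD vs Control, 0.49 in OGD+CX-4945 vs OGD and 0.71 in OGD+MS-275 vs OGD under these signals.

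With the ligation covariate let-7e was -0.017 in OGD+MS-275 vs OGD. With that covariate and a block of 3 title-number sets, let-7a was -0.059 and let-7i 0.0081 in OGD+CX-4945 vs OGD. In OGD+MS-275 vs OGD let-7a was -0.23, let-7c -0.23, let-7d 0.050, let-7e -0.0096, let-7f -0.21 and let-7g 0.012, and in OGD+MS-275 vs Control let-7d was 0.15, let-7g 0.049 and let-7i 0.0062. The correlation of let-7d with let-7e, recomputed after seeing the data, turned to 0.20 with the ligation slope removed. The causes of these changes were not tested beyond what each setting does by construction.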
